A study of Mus musculus with 8 samples.

Results

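Kruppel-like factors (KLFs) are zinc finger transcription factors, and 8 of their genes, Klf2, Klf3, Klf4, Klf6, Klf7, Klf10, Klf12 and Klf13, were followed here in regulatory T (Treg) cells. They were picked by symbol from the 27594 genes of the deposited table. All 8 passed the filter on low counts, so that all entered the tests among 14540 genes. RNA-seq was performed on C57BL/6 mice of 6 to 8 weeks, in 8 libraries of sorted CD4+YFP+ cells from spleen and peripheral lymph nodes. Resting Treg (rTreg) cells were gated as CD44low CD62Lhigh and activated Treg (aTreg) cells as CD44high CD62Llow. Wild-type (WT) cells came from Foxp3-YFP-Cre mice and Foxp1 cKO cells from Foxp1fl/fl Foxp3-YFP-Cre mice, with 2 replicates of each subset and genotype. All groups, WT included, carried the Foxp3-YFP-Cre knock-in, in which Cre is made from the Foxp3 locus and is thus active in Treg cells. The labels do not say whether a library came from 1 mouse or from several, so p-values measure the spread between these libraries.

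KLFs bind GC-rich and CACCC-type DNA elements through zinc fingers at the C-terminus, and their N-terminal parts recruit either co-activators or co-repressors. In T cells, KLF2 is best known for keeping naive cells quiescent and for switching on S1pr1, the receptor for egress from lymph nodes. KLF10 has been described as a TGF-β-induced factor in Treg cells, KLF4 as an inhibitor of proliferation, and KLF3, KLF12 and KLF13 as factors that can repress through co-repressors.

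Totals ranged from 6373170 to 15268623 counts per library, and a count of 0 allows up to 3 counts, which is 0.196 to 0.471 CPM (counts scaled to library size). Foxp3 transcripts lay between 429 and 646 CPM in every library. Foxp3 was lower in Foxp1 cKO than in WT rTreg cells, at a log2 difference of -0.32 (adjusted p = 0.0496 by edgeR). In aTreg cells its log2 difference was 0.017 (adjusted p = 0.930 by edgeR). The 6 aTreg markers summed to 79.1 to 114 CPM in rTreg and 1081 to 1732 CPM in aTreg libraries. Foxp1, the deleted gene, had 353 and 384 CPM in WT rTreg and 342 and 338 CPM in Foxp1 cKO rTreg, a log2 difference of -0.12 (adjusted p = 0.460 by edgeR), and 234 and 230 CPM in WT aTreg against 126 and 102 CPM in Foxp1 cKO aTreg, a log2 difference of -1.03 (adjusted p = 0.00194 by edgeR). These counts are for the whole gene, which can include exons outside the deleted part, and were not split by exon. The label of the Foxp1 cKO rTreg libraries could therefore not be checked in this way. Why the Foxp1 difference was smaller in rTreg than in aTreg cells was not tested. The paper reports complete deletion of Foxp1 in YFP+ Treg cells of Foxp1 cKO mice, which were not split by subset in that check. Replicate 2 of every group differed from replicate 1 in sex, with Xist at 15098 to 21822 counts in replicate 2 and at most 3 counts in replicate 1. Replicate number was therefore a term in each fit, as in the study's methods.

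The start regions of the genes are shown first, because the elements that KLFs bind also lie in front of KLF genes. Of the 8 genes, 7 had a window of 300 bases in the RefSeq promoter table (GRCm38.p6), from 250 bases before to 50 bases after the start, and Klf10 had none. The windows were searched on both strands for the GC box GGGCGG, the CACCC box CACCC, the forkhead core TGTTTA and the MEF2 site, named for the MEF2 factors that act on the Klf2 promoter below ERK5. GC boxes were in 6 of the 7 windows (Klf2, Klf3, Klf4, Klf6, Klf7 and Klf13) against 35.7% of 32851 windows in the table. CACCC boxes were in 5 of the 7 (Klf2, Klf3, Klf7, Klf12 and Klf13) against 57.5%. The forkhead core was in the Klf4 window only, against 13.4%, and the MEF2 site in the Klf2 window only, against 0.557%. The cyclic AMP response element TGACGTCA, the AP-1 site TGANTCA and the serum response CArG box were in none of the 7, against 1.79%, 7.81% and 1.63%. A match describes the letters of the window and not a bound site.
The 3 stretches shown here hold part of these matches and are written 5′ to 3′ on the strand of the gene, with matches in capitals. Outside them lie the CACCC box of Klf2, at -19 from the start, and further matches of Klf3. These are a GC box at -89 and CACCC boxes at -120, -111 and -48. GGGCGG or its complement CCGCCC is the GC box and GGGTG the complement of the CACCC box, which can share letters. CTAAATTTAG in Klf2 is the MEF2 site and TGTTTA in Klf4 the forkhead core. All letters printed lie before the annotated starts.
Klf2, chr8:72318842-72319021, plus strand: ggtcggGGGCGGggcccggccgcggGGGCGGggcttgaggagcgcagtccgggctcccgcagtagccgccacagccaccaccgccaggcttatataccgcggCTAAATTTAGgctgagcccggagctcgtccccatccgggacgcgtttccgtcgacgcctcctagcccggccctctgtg
Klf3, chr5:64803271-64803387, plus strand: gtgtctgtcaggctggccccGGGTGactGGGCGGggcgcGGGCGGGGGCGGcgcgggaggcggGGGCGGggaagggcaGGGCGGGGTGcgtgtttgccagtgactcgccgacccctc
Klf4, chr4:55532526-55532705, minus strand: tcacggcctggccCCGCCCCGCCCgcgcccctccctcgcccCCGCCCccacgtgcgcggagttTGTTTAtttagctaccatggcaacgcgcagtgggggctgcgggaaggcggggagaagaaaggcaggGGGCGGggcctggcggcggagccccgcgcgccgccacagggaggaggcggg

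In the GENCODE annotation of the same build, Klf2 is a short gene at chr8:72319033-72321656, whereas Klf12 spans 414048 bases at chr14:99870632-100284679. Klf2, Klf4, Klf6 and Klf10 overlap no other annotated gene. Exons of Klf3 overlap those of Gm20033 on the opposite strand, which had 29 to 45 counts per library. Exons of Klf7 overlap those of the antisense gene Gm13748, which had 0 to 3 counts. They also overlap those of Gm26649, a long noncoding RNA gene on the opposite strand for which no counts were given. The library kit does not mark strand, so reads from such pairs cannot be told apart.

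Per transcript length, Klf2 had the highest level of the 8 genes in each of the 4 groups. Levels between genes are given as FPKM, which divides by gene length as well as by library size. Klf2 had 395 and 299 FPKM in WT rTreg, 356 and 224 FPKM in Foxp1 cKO rTreg, 112 and 121 FPKM in WT aTreg, and 120 and 148 FPKM in Foxp1 cKO aTreg. It did not overlap with the next gene in any group, and it made up 57.0% to 62.5% of the summed FPKM of the 8 genes in rTreg libraries and 34.0% to 50.2% in aTreg libraries.
Klf13 and Klf6 came next. In rTreg cells, Klf13 (94.3 ± 14.5 FPKM in WT, SD, n = 2) was above Klf6 (70.8 ± 34.3 FPKM), with overlapping libraries in WT but not in Foxp1 cKO cells. In aTreg cells Klf6 had the higher mean (74.4 ± 32.9 against 58.9 ± 0.147 FPKM in WT), again with overlap. Klf3 followed in every group, between 18.7 and 34.3 FPKM, and overlapped Klf4 in both aTreg groups.
Klf10, Klf7 and Klf4 came after Klf3 in mean level in every group. In WT rTreg their means were 7.85 ± 2.64, 7.14 ± 1.44 and 4.48 ± 2.96 FPKM (SD, n = 2), and each overlapped the next. Klf12 was last in every group, at 0 to 2.86 FPKM. Its range overlapped that of Klf7 in both aTreg groups.

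**Figure D1:**
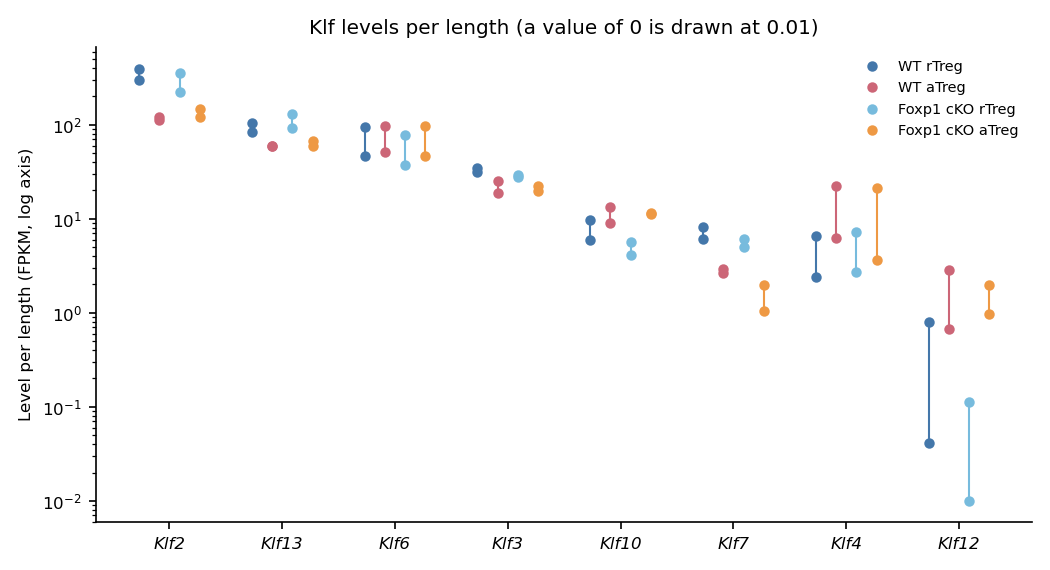
Level per length (FPKM, log axis) of the 8 Klf genes; each point is a library, and a line joins both replicates of a group. Klf2 is highest in every group and Klf12 lowest, and the order of the genes between them depends on the group.

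The comparison of aTreg with rTreg cells asks which KLF transcripts differ between resting and activated cells. In WT mice, 4 of the 8 KLF genes were lower in aTreg cells (Klf2, Klf3, Klf7 and Klf13), 1 was higher (Klf4), and Klf6, Klf10 and Klf12 did not pass. With a difference of 2-fold or more also required, 3 were called, namely Klf2 and Klf7 lower and Klf4 higher. Among all genes tested, 31.9% passed an adjusted p of 0.05 and 12.3% were called, with 2.83% called lower. By direction, 18.2% of all genes passed higher and 13.6% lower in aTreg, and 9.5% were called higher. In Foxp1 cKO mice all 8 passed, Klf2, Klf3, Klf7 and Klf13 lower and Klf4, Klf6, Klf10 and Klf12 higher, and 5 were called (Klf2 and Klf7 lower, Klf4, Klf10 and Klf12 higher). Among all genes, 40.1% passed there, 21.9% higher and 18.2% lower, and 15.7% were called, 11.3% higher and 4.39% lower. Without Foxp1 cKO rTreg replicate 1 this count of 5 fell to 2, and without Foxp1 cKO aTreg replicate 1 or 2 to 3. The median log2 difference of the 8 genes was -0.30 in WT and -0.10 in Foxp1 cKO cells, against -0.0046 and -0.018 over all genes tested. In sorted bulk samples, fewer cells that express a gene and less RNA per cell cannot be told apart.

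**Figure D2:**
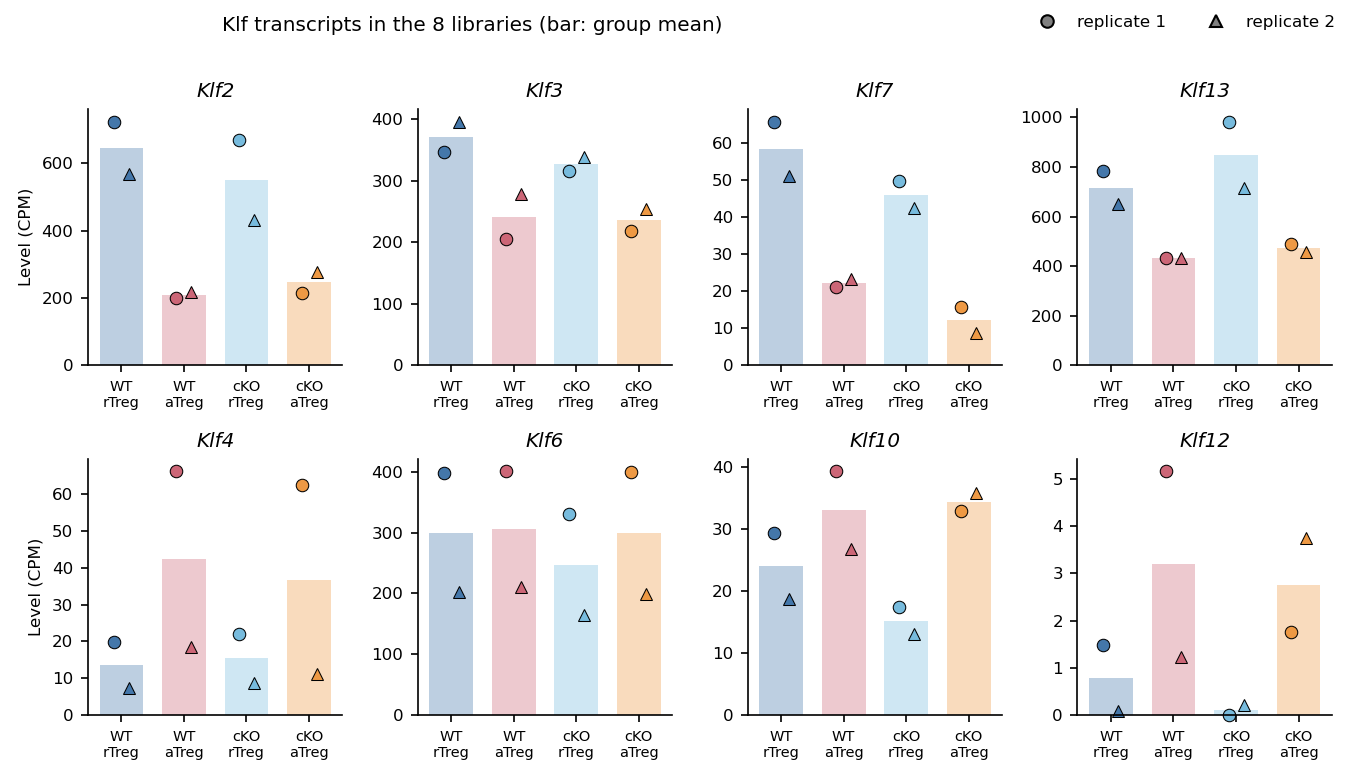
Level (CPM, scaled to the TMM-normalized library size) of each Klf gene; points are the 8 libraries, circles replicate 1 and triangles replicate 2, and bars the group means (n = 2). Klf2, Klf3, Klf7 and Klf13 are lower in both aTreg groups, and Klf4 and Klf6 are higher in replicate 1 than in replicate 2 of every group.

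Klf2, the quiescence factor of naive T cells, had 724 and 567 CPM in WT rTreg and 200.5 and 219 CPM in WT aTreg. In Foxp1 cKO cells it had 668 and 431 CPM in rTreg and 215 and 277 CPM in aTreg. All 4 rTreg libraries were thus above all 4 aTreg libraries. Within a genotype, groups did not overlap for 56.9% of all genes in WT and 61.7% in Foxp1 cKO cells. The share for 4 against 4 libraries was not counted. The log2 difference was -1.61 ± 0.21 (SE) in WT (adjusted p = 0.000992) and -1.13 ± 0.21 in Foxp1 cKO cells (adjusted p = 0.00381, both by edgeR). Within the replicate pairs it was -1.85 and -1.37 in WT, and -1.63 and -0.63 in Foxp1 cKO cells. With robust dispersion estimation the Foxp1 cKO difference had an adjusted p of 0.0543. It was under 2-fold, so that the call was lost, without Foxp1 cKO rTreg replicate 1 (-0.77) or Foxp1 cKO aTreg replicate 1 (-0.81).

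Klf7, a family member studied mainly in neurons and T cell leukaemia, had 65.9 and 51.1 CPM in WT rTreg and 21.1 and 23.3 CPM in WT aTreg. In Foxp1 cKO cells it had 49.9 and 42.4 CPM in rTreg and 15.7 and 8.63 CPM in aTreg. The rTreg and aTreg libraries did not overlap within either genotype, as for 56.9% of all genes in WT and 61.7% in Foxp1 cKO cells. The log2 difference was -1.36 ± 0.18 in WT (adjusted p = 0.00107) and -1.96 ± 0.20 in Foxp1 cKO cells (adjusted p = 0.000188, edgeR).

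Klf3, which binds the co-repressor CtBP, had 347 and 396 CPM in WT rTreg and 204 and 278 CPM in WT aTreg. It had 316 and 339 CPM in Foxp1 cKO rTreg and 217 and 255 CPM in Foxp1 cKO aTreg. The log2 difference was -0.63 ± 0.082 in WT (adjusted p = 0.000986) and -0.48 ± 0.082 in Foxp1 cKO cells (adjusted p = 0.00285, edgeR). Without the replicate term the latter had an adjusted p of 0.0732. Klf13, first described in T cells as a late activator of the chemokine gene Ccl5, had 782 and 649.9 CPM in WT rTreg and 432 and 434 CPM in WT aTreg. In Foxp1 cKO cells Klf13 had 983 and 714 CPM in rTreg and 489 and 458 CPM in aTreg. Its log2 difference was -0.71 ± 0.10 in WT (adjusted p = 0.00143) and -0.83 ± 0.10 in Foxp1 cKO cells (adjusted p = 0.000518, edgeR). For both genes the rTreg and aTreg libraries did not overlap within either genotype, as for 56.9% of all genes in WT and 61.7% in Foxp1 cKO cells. Neither gene reached 2-fold.

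Klf4 was the member that was higher in aTreg cells of both genotypes. It had 19.9 and 7.46 CPM in WT rTreg and 66.3 and 18.5 CPM in WT aTreg, and 22.2 and 8.59 CPM in Foxp1 cKO rTreg and 62.5 and 11.2 CPM in Foxp1 cKO aTreg. Within each replicate number aTreg was above rTreg, but the groups overlapped, since replicate 2 of aTreg was below replicate 1 of rTreg. The log2 difference was 1.56 ± 0.24 in WT (adjusted p = 0.00231) and 1.02 ± 0.25 in Foxp1 cKO cells (adjusted p = 0.0129, edgeR). Without the replicate term the adjusted p was 0.316 and 0.386. The Foxp1 cKO call was also lost without Foxp1 cKO rTreg replicate 1 (log2 difference 0.72, adjusted p = 0.155) or without Foxp1 cKO aTreg replicate 1 (0.50, adjusted p = 0.115).

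Klf10, induced by TGF-β, had 29.4 and 18.7 CPM in WT rTreg and 39.3 and 26.8 CPM in WT aTreg. In Foxp1 cKO cells it had 17.4 and 13.1 CPM in rTreg and 32.9 and 35.9 CPM in aTreg. The groups overlapped in WT, with a log2 difference of 0.46 ± 0.18 (adjusted p = 0.0865), and were separate in Foxp1 cKO cells, with 1.21 ± 0.19 (adjusted p = 0.00168, edgeR). Without Foxp1 cKO aTreg replicate 2 the latter was 0.85, under 2-fold, and the call was lost. Among all genes tested, 61.7% had groups that did not overlap in that comparison. Leaving out 1 library moved the WT log2 difference of Klf10 to between 0.29 and 0.67. The Foxp1 cKO value of Klf10 moved to between 0.85 and 1.52.
Klf6, a widely expressed factor whose transcript responds quickly to stimulation, had 398 and 202 CPM in WT rTreg and 401 and 211 CPM in WT aTreg. It had 331 and 164 CPM in Foxp1 cKO rTreg and 399 and 198 CPM in Foxp1 cKO aTreg. Its log2 difference was 0.038 ± 0.054 in WT (adjusted p = 0.638) and 0.27 ± 0.054 in Foxp1 cKO cells (adjusted p = 0.00551, edgeR), the latter with an adjusted p of 0.753 without the replicate term and 0.0552 without Foxp1 cKO rTreg replicate 2.

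Klf12, described as a repressor, was near the detection limit. It had 16 and 1 counts in WT rTreg, 47 and 19 counts in WT aTreg, 0 and 3 counts in Foxp1 cKO rTreg, and 21 and 52 counts in Foxp1 cKO aTreg. By summed counts over the library sizes, aTreg had 18.9 times the rTreg level in Foxp1 cKO cells (95% exact interval of counting error, 6.23 to 94.0) and 3.71 times in WT cells (2.15 to 6.74). The adjusted p by edgeR was 0.0404 in Foxp1 cKO and 0.153 in WT cells. The fitted log2 difference spanned 2.35 (without Foxp1 cKO aTreg replicate 2) to 8.57 (without Foxp1 cKO rTreg replicate 2) in Foxp1 cKO cells and 0.69 (without WT aTreg replicate 1) to 4.84 (without WT rTreg replicate 1) in WT cells. Without Foxp1 cKO aTreg replicate 1 the WT difference passed (adjusted p = 0.0457, edgeR). The Foxp1 cKO call was lost without the replicate term (adjusted p = 0.0800), by limma-voom (0.103), with robust dispersion estimation (0.103), and without Foxp1 cKO rTreg replicate 1 (0.182), Foxp1 cKO rTreg replicate 2 (0.121) or Foxp1 cKO aTreg replicate 2 (0.193).

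The comparison of genotypes asks what changed with the conditional deletion of Foxp1. In rTreg cells, Klf6 was the only member that passed, and it was lower in Foxp1 cKO cells. No member was called at 1.5-fold, against 12% of all genes passing (5.45% lower) and 5.6% called. Without either Foxp1 cKO aTreg library, the count of members called was 1 (Klf10). In aTreg cells, Klf7 was the only member that passed and it was called lower, against 6.88% of all genes passing (2.77% lower) and 4.03% called (1.66% lower). The 4 comparisons share libraries, so their values are given side by side and are not separate evidence.

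**Figure D3:**
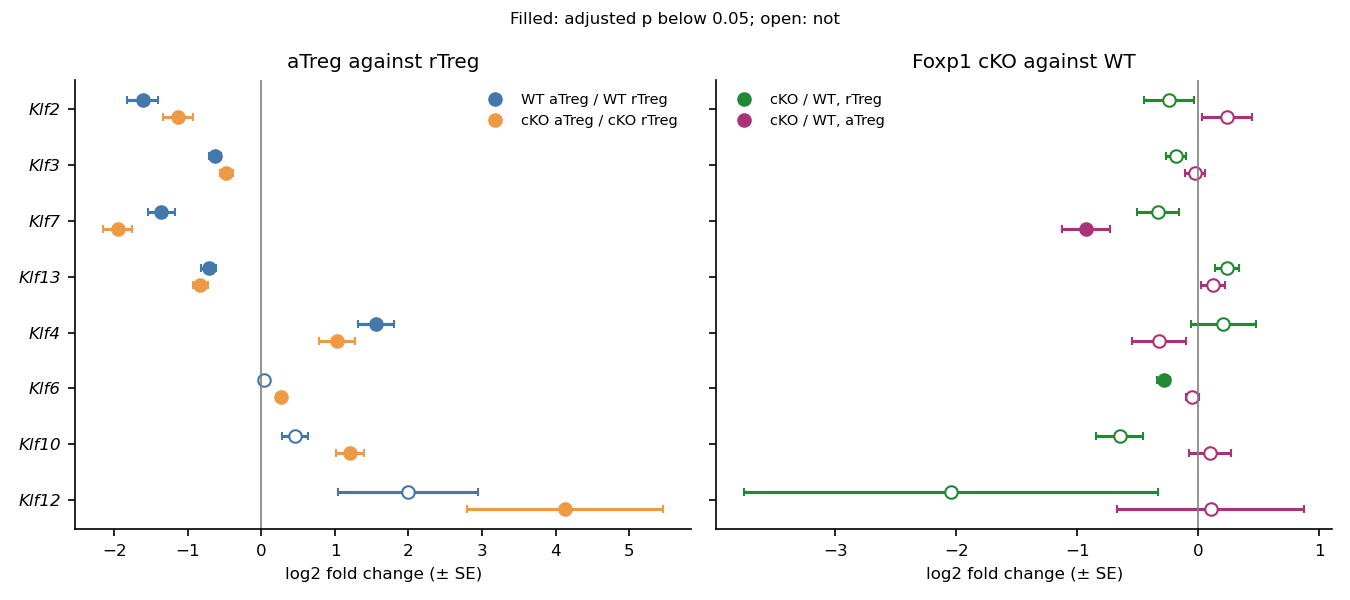
Log2 fold change with its standard error for each Klf gene, aTreg against rTreg on the left and Foxp1 cKO against WT on the right; filled points passed an adjusted p of 0.05 (edgeR). On the left, Klf2, Klf3, Klf7 and Klf13 are filled and below 0 in both genotypes and Klf4 is filled and above 0, and the right panel has 2 filled points, Klf6 in rTreg and Klf7 in aTreg.

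Klf7 had 21.1 and 23.3 CPM in WT aTreg and 15.7 and 8.63 CPM in Foxp1 cKO aTreg, a log2 difference of -0.93 ± 0.20 (adjusted p = 0.0356, edgeR). Both Foxp1 cKO libraries were lower than both WT libraries, as for 41.8% of all genes in either direction, and within the replicate pairs the difference was -0.41 and -1.38. In rTreg cells it was -0.33 ± 0.17 (adjusted p = 0.258, edgeR). The call in aTreg depended on the fit. The adjusted p was 0.251 without the replicate term and 0.118 from the aTreg libraries alone. Without WT aTreg replicate 2 the log2 difference was -0.61 (adjusted p = 0.211), and without Foxp1 cKO aTreg replicate 2 it was -0.61 (adjusted p = 0.237). It also missed the threshold, at adjusted p between 0.0595 and 0.0749, without WT rTreg replicate 1 or 2 or Foxp1 cKO rTreg replicate 1 or 2.

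Klf6 in rTreg cells had 398 and 202 CPM in WT and 331 and 164 CPM in Foxp1 cKO libraries. The groups overlapped, but within the replicate pairs the difference was -0.26 and -0.30, and the fitted log2 difference was -0.28 ± 0.054 (adjusted p = 0.0181, edgeR). The adjusted p was 0.855 without the replicate term, and 0.0818 to 0.161 without any 1 of the 4 rTreg libraries (WT rTreg replicate 1 or 2, Foxp1 cKO rTreg replicate 1 or 2). In aTreg cells the log2 difference was -0.048 ± 0.054 (adjusted p = 0.652, edgeR).
Klf10 had the largest difference in rTreg cells among members above the detection limit, 29.4 and 18.7 CPM in WT against 17.4 and 13.1 CPM in Foxp1 cKO libraries. The groups did not overlap, as for 45.2% of all genes, and the log2 difference was -0.65 ± 0.19 (adjusted p = 0.0700, edgeR). It passed in 4 alternatives, with an adjusted p of 0.00329 without the filter on low counts, 0.0212 from the rTreg libraries alone, and 0.0205 and 0.0215 without Foxp1 cKO aTreg replicate 1 or 2. In aTreg cells the log2 difference was 0.10 ± 0.17 (adjusted p = 0.783, edgeR).

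Klf2 differed between genotypes by -0.24 ± 0.20 (log2) in rTreg cells (adjusted p = 0.490) and by 0.24 ± 0.21 in aTreg cells (adjusted p = 0.548, edgeR). The first value turned to 0.067 without Foxp1 cKO rTreg replicate 2, and the second to -0.12 without Foxp1 cKO aTreg replicate 2. Klf13 was at 0.24 ± 0.10 in rTreg (adjusted p = 0.168) and Klf3 at -0.18 ± 0.082 (adjusted p = 0.200, edgeR). Klf13 moved to 0.054 without Foxp1 cKO rTreg replicate 1 and to 0.40 without Foxp1 cKO rTreg replicate 2, and Klf3 to -0.28 and -0.088 without the same libraries. In aTreg cells Klf13 was at 0.12 ± 0.10 and Klf3 at -0.024 ± 0.082, neither past the threshold. Klf4 was at 0.21 ± 0.27 in rTreg and -0.32 ± 0.22 in aTreg cells, also not past it. For Klf12, Foxp1 cKO rTreg had 0.207 times the WT level by summed counts (95% exact interval of counting error, 0.0388 to 0.715), with an adjusted p of 0.485 by edgeR.

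Whether the genotype difference depended on the subset was tested with an interaction term, on the adjusted p alone. None of the 8 passed by edgeR, against 0.33% of all genes, and 2 (Klf6 and Klf10) were under 0.05 before adjustment. DESeq2 and limma-voom also gave 0 members. Without the filter on low counts Klf10 passed (adjusted p = 0.0356, edgeR). The Klf10 interaction was 0.75 ± 0.26 on the log2 scale, and that of Klf2 was 0.48 ± 0.29. Leaving out 1 library moved the Klf10 value to between 0.38 (without Foxp1 cKO aTreg replicate 2) and 1.05 (without Foxp1 cKO aTreg replicate 1), and the Klf2 value to between 0.12 (without Foxp1 cKO aTreg replicate 2) and 0.84 (without Foxp1 cKO rTreg replicate 1). For Klf7 it was -0.60 ± 0.27 (adjusted p = 0.404, edgeR), with -0.27 without Foxp1 cKO aTreg replicate 2, -0.29 without WT aTreg replicate 2 and -0.95 without Foxp1 cKO aTreg replicate 1.

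Klf4 and Klf6 also differed between the replicate numbers, in the same direction in all 4 groups. The replicate 2 minus replicate 1 difference from the same fits was -1.83 ± 0.17 for Klf4 (adjusted p = 0.00133) and -0.98 ± 0.039 for Klf6 (adjusted p = 3.02e-05, edgeR). Klf3 differed by 0.24 ± 0.058 (adjusted p = 0.0282, edgeR), and the other 5 members did not pass. Among all genes, 18.5% passed. Of 22 immediate-early genes, which cells switch on within minutes of a stimulus, 15 were lower in replicate 2 and 1 was higher. Fos was at a log2 difference of -1.06, Jun at -1.11, Dusp1 at -1.96 and Nr4a1 at -1.79. Between replicate numbers, Egr1 and Egr2 did not pass (0.0015 and 0.15). The summed immediate-early level was 6045 to 8872 CPM in replicate 1 and 2914 to 4505 CPM in replicate 2. It was higher in aTreg than in rTreg cells within each replicate number and genotype. It was also lower in Foxp1 cKO than in WT cells within each replicate number and subset. Between genotypes in rTreg cells, 7 of the 22 passed lower and 1 higher (median log2 difference -0.27), where 5.45% of all genes passed lower. In aTreg cells 4 passed lower and 2 higher (median -0.19), where 2.77% of all genes passed lower. The replicate numbers also differ in sex. The study sequenced in separate rounds and used a paired fit because of a batch effect, and the labels do not say which libraries were in which round. The part of sex, sequencing round or stimulation in the levels of Klf4 and Klf6 was not tested.

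**Figure D4:**
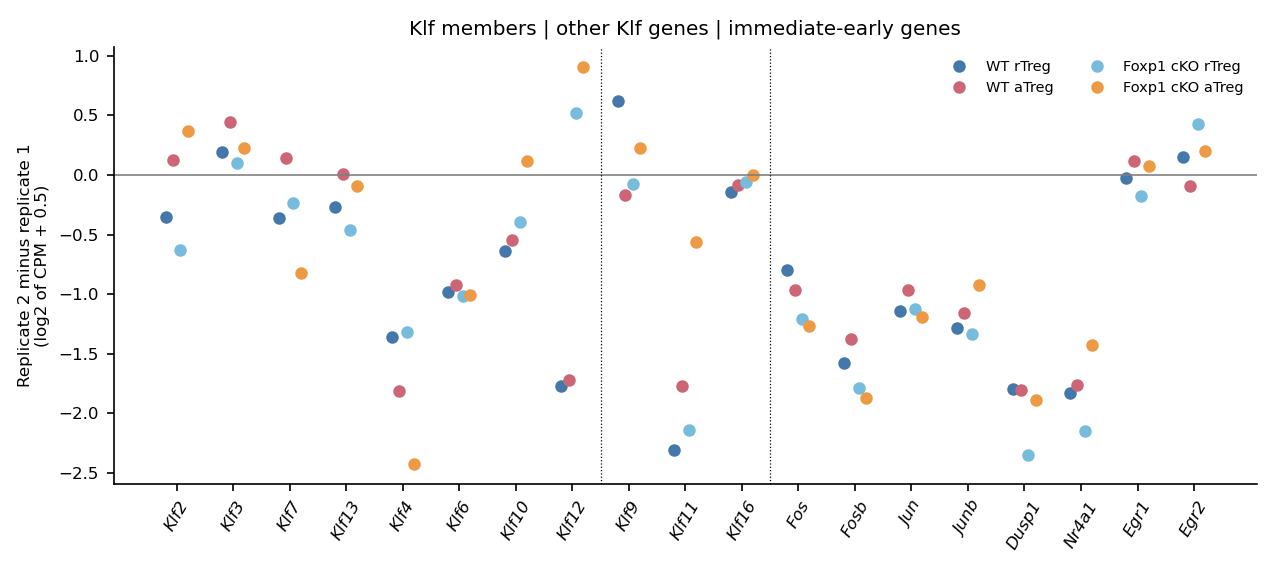
Replicate 2 minus replicate 1 within each group, as the difference of log2(CPM + 0.5), for the 8 Klf members, 3 other Klf genes and 8 immediate-early genes; each point is 1 group. Klf4, Klf6 and Klf11 lie below 0 in all 4 groups, as do Fos, Fosb, Jun, Junb, Dusp1 and Nr4a1, whereas Klf2, Klf7 and Klf10 have points on both sides.

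Markers of other cells were summed over each list. The 6 granulocyte markers reached 0 to 3.21 CPM in WT and 3.45 to 28.2 CPM in Foxp1 cKO libraries, and the 6 myeloid markers 0.864 to 3.18 and 2.46 to 7.65 CPM. The 5 B cell markers were at 8.29 to 10.8 CPM in rTreg and 33.5 to 38.7 CPM in aTreg libraries, with Ms4a1 at 0 to 4 counts. Cd22 (3 to 9 counts in rTreg and 181 to 216 counts in aTreg), Cd79b and Pax5 were higher in aTreg. Cd79a went the other way, at 3.46 to 4.33 CPM in rTreg and 2.19 to 3.14 CPM in aTreg. The 4 dendritic cell markers were at 0.553 to 1.75 CPM in rTreg and 4.36 to 9.49 CPM in aTreg. The 5 endothelial markers were almost entirely Pecam1, with at most 3 counts of any of Cdh5, Kdr, Tek or Cldn5. Erythroid markers were at 0.867 to 3.98 CPM. CD8 and NK markers were at 8.27 to 16.7 CPM, mostly from Cd8b1 (5.97 to 15.7 CPM), with Cd8a at 1 to 10 counts. The part of such cells in the low-level members Klf4, Klf7, Klf10 and Klf12 was not tested. Klf2, Klf3 and Klf13 had between 200.5 and 983 CPM in every library.

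The profile over the 8 libraries nearest to that of Klf2, by the root mean square (RMS) difference of centred log2 CPM, was S1pr1, the receptor for egress from lymph nodes, at 0.18. Bcl2l11, which encodes the pro-apoptotic protein BIM, followed at 0.213. S1pr1 had 651 and 495 CPM in WT rTreg, 160.0 and 179 CPM in WT aTreg, 536 and 431 CPM in Foxp1 cKO rTreg, and 254 and 265 CPM in Foxp1 cKO aTreg. Like Klf2, it was lower in all aTreg than in all rTreg libraries. Within a genotype, subsets did not overlap for 56.9% of all genes in WT and 61.7% in Foxp1 cKO cells. For all aTreg against all rTreg libraries the share was not counted. The nearest to Klf7 were Rnf130 (0.172) and Dnah17 (0.215), to Klf10 Mdm1 (0.117) and Plekhg5 (0.127), to Klf4 Gm15472 (0.342) and Gm25406 (0.356), and to Klf12 Asns (0.513) and Aifm2 (0.56). Among the members, Klf3 and Klf13 were nearest to each other (0.295), followed by Klf2 and Klf13 (0.372). These distances are descriptions over 8 libraries that share subset, replicate and genotype differences.

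Of 11 genes reported as KLF targets, 7 passed between WT aTreg and WT rTreg (3 higher and 4 lower, median log2 difference -0.32), where 31.9% of all genes passed. In Foxp1 cKO cells 8 passed (4 higher and 4 lower), where 40.1% of all genes passed, with a median log2 difference of 0.24. In a list split between the directions, each median is the value of 1 gene. Only 1 of the 11 passed the interaction, Ccr7, with -1.08 on the log2 scale. S1pr1 was lower, at a log2 difference of -1.74 ± 0.14 in WT (adjusted p = 8.61e-05) and -0.89 ± 0.13 in Foxp1 cKO cells (adjusted p = 0.00133, edgeR). Ccl5, a gene on which KLF13 was described to act, was higher by log2 differences of 4.39 and 4.47, and Smad7, an inhibitor of TGF-β signalling, was lower, at a log2 difference of -0.88 and -0.65 (both past the threshold, edgeR).
Between genotypes, 2 of the 11 passed in rTreg cells (against 12% of all genes), both lower, namely Ccr7 (log2 difference -0.47) and Smad7 (-0.58). In aTreg cells 4 passed, against 6.88% of all genes. S1pr1 was higher in Foxp1 cKO cells by 0.61 ± 0.13 on the log2 scale (adjusted p = 0.0365), Itgb7 by 0.42 (0.0323) and Lgals3 by 1.34 (0.0435), and Ccr7, the homing receptor, was lower, at a log2 difference of -1.56 ± 0.10 (adjusted p = 0.000598, edgeR). The median log2 difference of the 11 was 0.17 in rTreg and -0.015 in aTreg cells, against 0.0029 and 0.0018 over all genes.

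**Figure D5:**
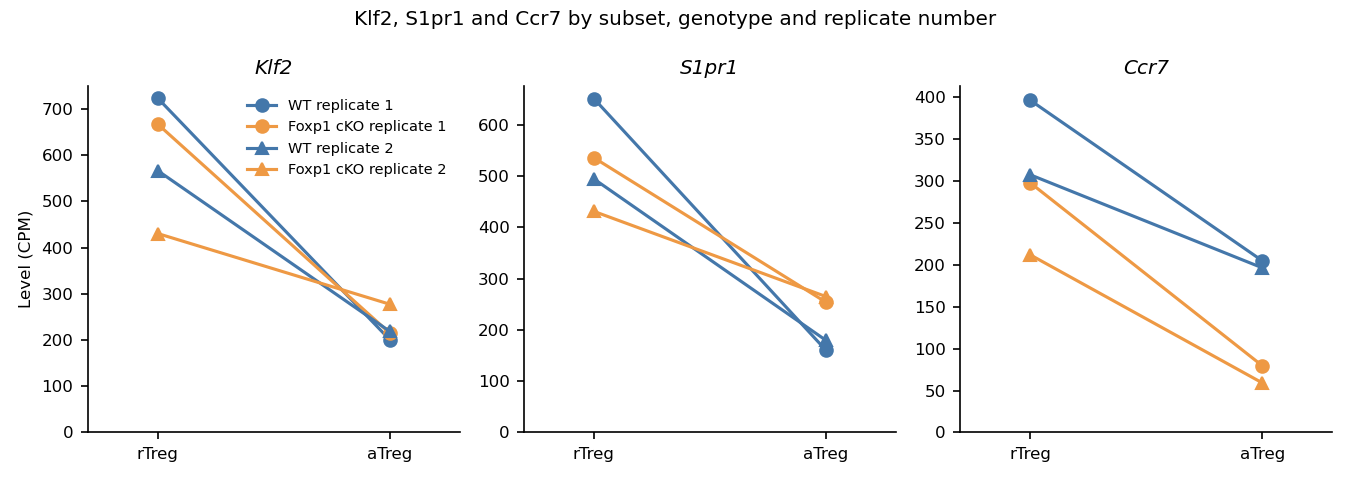
Level (CPM) of Klf2, S1pr1 and Ccr7 in rTreg and aTreg cells; each line joins the same genotype and replicate number. Every line is lower at aTreg than at rTreg, and in aTreg cells both Foxp1 cKO libraries lie above both WT libraries for S1pr1 and below them for Ccr7. In aTreg cells the genotypes did not overlap for 41.8% of all genes.

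The rest of the family and the genes around it were taken from lists. Of 7 other Klf genes with counts, 4 had enough counts to be tested. Klf9, a glucocorticoid-responsive factor, had 9.12 and 14.3 CPM in WT rTreg and 5.58 and 5.27 CPM in Foxp1 cKO rTreg, and was lower, at a log2 difference of -1.13 ± 0.23 (adjusted p = 0.0212), and Klf16 was lower, at a log2 difference of -0.55 ± 0.069 (adjusted p = 0.00363, edgeR). In aTreg against rTreg cells, Klf8 was higher by a log2 difference of 1.29 in WT and 2.77 in Foxp1 cKO, and Klf9 by 0.67 and 1.17, while Klf16 was lower, at a log2 difference of -0.25 in WT (adjusted p = 0.0233, edgeR). Among all genes, 5.45% passed lower between genotypes in rTreg cells. Between subsets, 18.2% passed higher and 13.6% lower in WT, and 21.9% passed higher in Foxp1 cKO cells. Klf1, Klf5 and Klf17 were too low to be tested.
Of the Sp genes, the relatives that share the zinc finger type, 5 were tested. Of all genes, 5.45% passed lower between genotypes in rTreg and 2.77% in aTreg cells. Between subsets, 31.9% of all genes passed in WT and 40.1% in Foxp1 cKO cells. Sp3 (log2 difference -0.34), Sp4 (-0.46) and Sp6 (-2.26, at 17 and 22 against 1 and 6 counts) were lower in Foxp1 cKO rTreg, Sp4 was lower in Foxp1 cKO aTreg (-0.31), and none passed between the subsets of either genotype.
Of 6 tested activators of Klf2, the forkhead factor Foxo1 was lower in Foxp1 cKO cells of both subsets (log2 difference -0.31 in rTreg and -0.29 in aTreg), and Mef2d was lower in rTreg (-0.24). Foxo1, Mef2a and Mef2d were all lower in aTreg than in rTreg cells, with log2 differences of -0.49, -0.74 and -0.50 in WT and of -0.47, -0.75 and -0.42 in Foxp1 cKO cells. None of the 6 passed as higher in any comparison. Over all genes, 5.45% passed lower between genotypes in rTreg and 2.77% in aTreg cells. Between subsets, 13.6% of all genes passed lower and 18.2% higher in WT. In Foxp1 cKO cells these shares were 18.2% lower and 21.9% higher.
Of 6 ubiquitin ligases that act on KLF proteins, Wwp1, which targets KLF2 and KLF5 proteins, was higher in Foxp1 cKO cells. It had 31.7 and 39.8 CPM in WT rTreg against 62.6 and 101 CPM in Foxp1 cKO rTreg (log2 difference 1.18 ± 0.10, adjusted p = 0.000887), and 40.3 and 54.3 against 80.5 and 128 CPM in aTreg (1.13 ± 0.10, adjusted p = 0.00154, edgeR). All 4 Foxp1 cKO libraries were above all 4 WT libraries. Within a subset, genotypes did not overlap for 45.2% of all genes in rTreg and 41.8% in aTreg cells. For 4 against 4 libraries the share was not counted. Smurf1, another ligase of KLF2, was lower, at a log2 difference of -0.63 in rTreg and -0.47 in aTreg. Of 13 co-regulators, 2 passed in each genotype comparison, all lower (Ep300 and Kat2b in rTreg, Hdac2 and Kat2b in aTreg), and 5 in each subset comparison, all lower. The shares over all genes were 12% and 6.88% between genotypes in rTreg and aTreg, and 31.9% and 40.1% between subsets in WT and Foxp1 cKO cells. The largest of these co-regulator differences was that of Kat2a between Foxp1 cKO subsets (-0.54).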

How the data were processed

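RNA-seq counts per gene of 8 libraries were deposited with FPKM values. According to the labels and the study's methods, the authors aligned reads to mm10 with HISAT2 2.0.5 and made the deposited counts with HTSeq after removing duplicates. The strand setting and annotation are not given in the sources used here. The deposited FPKM values divide the same counts by gene length and library total. The counts were tested with edgeR 4.0.16 (quasi-likelihood, TMM, filterByExpr, minimum count 10) over all 8 libraries, with 4 group means and a term for replicate number, and Benjamini-Hochberg adjustment over 14540 genes. A gene passed at an adjusted p under 0.05 and was called with 1.5-fold (genotype) or 2-fold (subset) as well. Replicate numbers were used to pair the samples, with 1 term for both genotypes, and same-numbered libraries share sex. Deviations from group means correlated at 0.597 between WT subsets and 0.548 between Foxp1 cKO subsets. Between groups of different genotype they correlated at 0.355 to 0.462. The fits were tested on data simulated without a replicate effect, with changes put into Foxp1 cKO rTreg libraries. Between genotypes in rTreg, 38.8% of simulated 1.5-fold changes passed, 66% of 2-fold and 87.2% of 3-fold changes. Of the unchanged genes, 0.13% passed. limma 3.58.1, DESeq2 1.42.0, no replicate term, other filters, scalings and dispersions, and leaving out each library were alternatives. All members, passing Klf and Sp genes, up to 4 passing genes per list and the 2 nearest profiles per called member were named. The members and lists were chosen with earlier results of these data known, and replicate differences were examined after seeing values. Standard errors of log2 differences were derived from the edgeR test, as the absolute difference over the square root of its F statistic. Counting intervals cover counting error only. CPM are counts scaled to the TMM-normalized library size. A few genes of the lists are not reported here.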

Additional observations from a re-analysis of the deposited data

Results flagged for a closer look

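Foxp1 itself differed in its genotype effect between the subsets, with an interaction of -0.92 on the log2 scale (adjusted p = 0.0477, edgeR), lower in Foxp1 cKO cells with -1.03 in aTreg and -0.12 in rTreg. Ccr7, a reported KLF target, also did, with an interaction of -1.08 (adjusted p = 0.0316, edgeR), lower, at -1.56 in aTreg and -0.47 in rTreg.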

How the results depend on the processing

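Without the replicate block, 0 members were called between genotypes in aTreg and 3 between Foxp1 cKO subsets, and the aTreg genotype difference of Klf12 was -0.16; it was -0.11 by limma-voom. Dropping the block lost passes of Klf3 and Klf6 given above, which were not calls. It also lost the calls of Klf4 and Klf12 between subsets and of Klf7 between genotypes, and no other call of a member. Without the filter on low counts, 1 member (Klf10) was called between genotypes in rTreg and 1 by interaction. Robust dispersions gave 3 calls between Foxp1 cKO subsets. The libraries of the comparison alone gave 1 call (Klf10) in rTreg and 0 in aTreg between genotypes. Leaving out each library gave 0 to 1 calls between genotypes in rTreg, 0 to 1 in aTreg, 3 to 4 between WT subsets and 2 to 5 between Foxp1 cKO subsets. Genotype differences then spanned, in rTreg, -0.62 to 0.067 for Klf2, -0.10 to 0.51 for Klf4 and -6.43 to 0.70 for Klf12, and in aTreg -0.12 to 0.54 for Klf2, -0.15 to 0.12 for Klf3, -0.86 to 0.030 for Klf4, -0.25 to 0.42 for Klf10, -1.56 to 1.64 for Klf12 and -0.0041 to 0.27 for Klf13. Interactions spanned -0.70 to 6.57 for Klf12 and -0.27 to 0.070 for Klf13. The causes were not tested. The calls of Klf2 and Klf7 between WT subsets held in all alternatives.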
